A study of Mus musculus with 4 samples.

Results

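The nuclear hormone receptors are a family of transcription factors, and 43 mouse genes of the family were followed here, from the estrogen receptors to the orphan receptors Nr0b1 and Nr0b2. Their probes were found by the RefSeq accession that each probe targets, and every probe that led to one of the 43 symbols was kept. This gave 64 of the 39429 probes on the array, 1 probe each for 24 genes, 2 for 17 and 3 for 2, against 20971 genes with a symbol on the whole array. The samples were RNA extracts of the mouse ear on 4 two-colour arrays. Each array set an extract labelled DEP_ear in the red dye Cy5 against an extract labelled CON_ear in the green dye Cy3. DEPs are diesel exhaust particles, and the study asked which genes respond to them in the middle ear. The study used 9 male BALB/c mice aged 6 to 10 weeks. Exposed animals inhaled the particles for 1 h a day on 5 days and were killed on day 14, and control ears are labelled untreated. Temporal bone around the middle ear was taken, and the number of animals behind an extract is not given in the sources used here. The methods give the particle concentration in 2 ways that do not match, so it is not stated here.

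Nuclear receptors bind small lipophilic molecules such as steroids, retinoids, thyroid hormone, vitamin D, fatty acids and sterols, and then switch target genes on or off through short DNA motifs. Steroid receptors sit with chaperones until a hormone arrives and then bind as pairs of themselves, whereas receptors for retinoids, thyroid hormone, vitamin D, fatty acids and sterols bind as partners of a retinoid X receptor (RXR). Orphan receptors have no agreed natural ligand. In epithelia, fat, bone and nervous tissue, members of the family are known regulators of differentiation, lipid use and inflammation.

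Promoter sequence is shown for Esr1, Rxra and Rorb, since these were the 3 well-measured receptors whose ratios differed from 0 at an unadjusted p under 0.05 in the results that follow. Each run holds the 250 bases upstream of an annotated transcript start in RefSeq for build GRCm38.p6, written 5′ to 3′ on the strand of the gene. Capitals mark AGGTCA or its reverse complement TGACCT, the core of the motif that many receptors of this family bind. The Esr1 window lies at chr10:4611739-4611988 on the plus strand, the Rxra window at chr2:27709042-27709291 on the plus strand and the Rorb window at chr19:19111197-19111446 on the minus strand.
Esr1: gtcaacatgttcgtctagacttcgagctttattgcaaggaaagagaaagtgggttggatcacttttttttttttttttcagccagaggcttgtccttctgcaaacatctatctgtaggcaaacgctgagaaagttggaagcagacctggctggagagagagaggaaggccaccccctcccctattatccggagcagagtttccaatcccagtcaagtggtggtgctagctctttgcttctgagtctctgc
Rxra: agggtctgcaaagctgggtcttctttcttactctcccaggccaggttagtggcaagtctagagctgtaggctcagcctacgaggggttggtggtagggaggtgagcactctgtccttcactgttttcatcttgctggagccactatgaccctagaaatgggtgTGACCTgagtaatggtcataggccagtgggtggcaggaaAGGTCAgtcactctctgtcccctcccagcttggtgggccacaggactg
Rorb: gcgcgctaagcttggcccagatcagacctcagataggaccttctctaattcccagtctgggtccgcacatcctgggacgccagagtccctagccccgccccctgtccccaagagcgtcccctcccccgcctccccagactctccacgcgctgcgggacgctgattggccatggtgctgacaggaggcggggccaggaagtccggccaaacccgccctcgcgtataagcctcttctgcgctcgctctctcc
The Rxra window, before the start of 1 of its annotated transcripts, held both forms of the motif, and the windows shown for Esr1 and Rorb held neither. It was chosen for the motif from 2 Rxra windows, of which the other held none, and neither of the 2 windows of Esr1 or of Rorb held it. RefSeq gave 60 such windows for 39 of the receptor genes, and AGGTCA or TGACCT stood in 10 of them, or 16.7%, in 9 genes, Nr0b1, Nr1h4, Nr5a2, Nr6a1, Pparg, Rarg, Rxra, Rxrg and Thrb. Over all genes, 4607 of 32851 windows held it, or 14.02%, a share not far below that of the receptors. The difference between these shares was not tested. The motif AGAACA or TGTTCT, the core bound by glucocorticoid-type receptors, stood in 4 of the 60 windows, or 6.67%, against 5284 of all windows, or 16.1%. A match describes these letters alone and is no evidence of binding.

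Values are log2 ratios of DEP over control as the channels are labelled, converted from the log10 ratios that the image software wrote for each spot. That direction rests on the source names in the labels, which list both treatments under the red channel and none under the green one, and it is the reverse of the direction the study gives for Esr1 and for Slc1a2, an astrocyte marker used here. For Esr1 the study counts it among genes lowered more than 2-fold on its arrays and also reports a decrease by qRT-PCR. If the channels were exchanged, every sign given here would turn. No dye was swapped, so a dye preference of a probe and an effect of exposure cannot be told apart. Saturation touched 0 spots. Of 39429 probes, between 25774 and 27178 were well above background in Cy5 and between 23351 and 26800 in Cy3. The arrays differed in spread and in pattern. Array 1 had the widest ratios, with an SD over probes of 0.97, where arrays 2 to 4 had 0.62 to 0.68, and arrays 1 and 4 correlated at -0.22 over all probes.

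Of the 43 receptors, 39 had a probe with a ratio on at least 3 arrays and could be tested. A gene was represented by its brightest such probe, and 31 of the 39, or 79.5%, had that probe well above background in both channels on every array. These are called fully measured below, and 71.4% of all 25694 genes tested met the same condition. Among the others, 8 were tested on dim probes, and Hnf4g, Nr2e1, Nr2e3 and Nr4a3 were not tested, with neither channel above background on any array.

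No receptor passed the threshold after adjustment. In limma's moderated test of the 4 ratios against 0, 0 of 39 receptors had a Benjamini-Hochberg adjusted p under 0.05, and 0.00% of all genes tested did so. The smallest adjusted p over all genes was 0.0922, and 0.200 over the fully measured receptors, which was that of Esr1. At an unadjusted p under 0.05, 2 of the 31 fully measured receptors, Esr1 and Rxra, were higher in the DEP channel, or 6.45% against a background of 6.55% of all fully measured genes. Rorb alone was lower, or 3.23% against a background of 6.07%. By mean ratio 0 of the 31 lay past 2-fold, where 0.703% of all fully measured genes were higher and 2.45% lower. Over the 39 tested, 3 were higher and 3 lower, with Nr0b2, Nr1i3 and Nr0b1 added on dim probes, where 2574 of all 25694 genes tested were higher and 8.66% were lower. These shares are close to or below those of the array as a whole. With 4 ratios, an exact two-sided sign-flip test of a single gene has 8 patterns and cannot go below p = 0.125. Nothing in the labels says that the extracts came from separate animals, so p-values measure only the spread between these extracts. In an extract of whole tissue, fewer cells of a type and less RNA per cell cannot be told apart.

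The receptors lay around 0 as a group. By mean ratio, 15 of the 31 were above 0 and 16 below, from -0.73 for Rorb to 0.62 for Pparg. Their median was -0.02, with -0.05, 0.07, -0.02 and -0.05 on arrays 1 to 4, and all 18349 fully measured genes had a median of 0.03. The spread between arrays was large beside the means. The SD ran from 0.035 for Rxrg to 1.14 for Esrrg, with a median of 0.34 against 0.28 over all fully measured genes, and it exceeded the size of the mean ratio for 26 of the 31 receptors. In 11 receptors, or 35.5%, the SD was above 0.5, against 23.0% of all fully measured genes, and 10 receptors had an SD below 0.2. The 95% confidence interval of the mean stayed within 2-fold either way for 22 receptors and within 1.5-fold for 13.

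**Figure D1:**
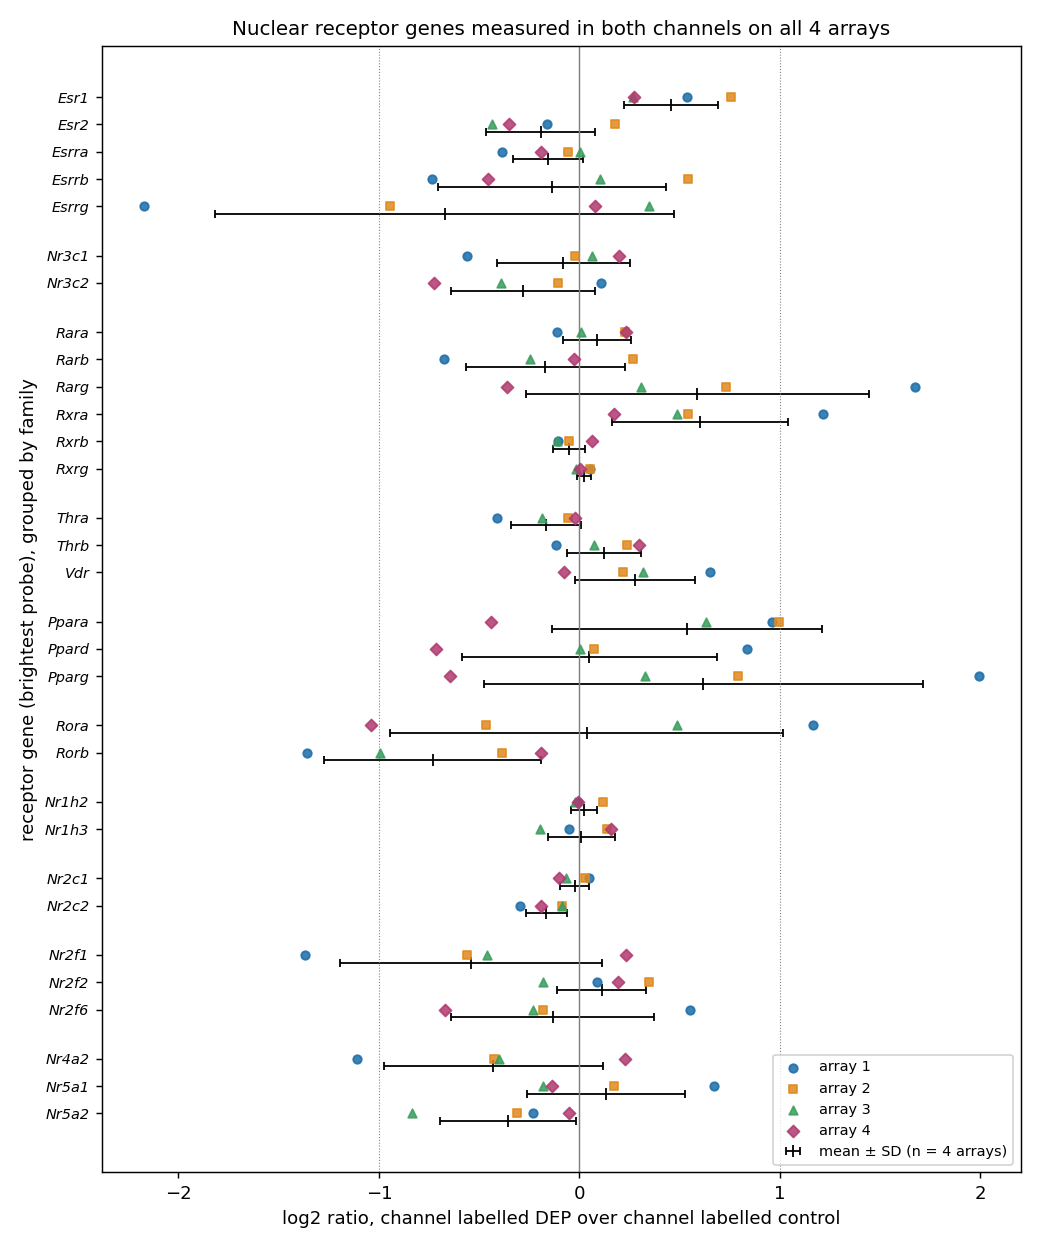
Log2 ratio of DEP over control for the brightest probe of each of the 31 fully measured receptors, grouped by family, with 1 point per array and a bar for the mean ± SD of the 4 arrays. Dotted lines mark 2-fold. Esr1 and Rxra lie above 0 on all 4 arrays and Rorb below 0 on all 4, while Esrrg, Pparg, Rarg and Rora span more than 2 log2 units.

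Among the estrogen receptors and the estrogen-related receptors (ERRs), Esr1 stood above 0 and the other 4 receptors had means below 0. However, 3 of those, Esr2, Esrra and Esrrb, had means above 0 under normexp correction with median centring. Esr1 encodes estrogen receptor alpha, the main mediator of estrogen signaling in the reproductive tract and bone. Its brightest probe gave ratios of 0.54, 0.76, 0.27 and 0.27 on arrays 1 to 4. All 4 were above 0, with signals of 148, 117, 105 and 92.7 in the DEP channel and 102, 69.0, 87.4 and 76.8 in the control channel. The mean was 0.46 ± 0.23 (SD, n = 4), with an interval from 0.12 to 0.80, and limma's adjusted p was 0.200. Its ratio lost the unadjusted threshold when array 1 or array 2 was left out, with means between 0.36 and 0.52 over the 4 omissions. The mean of Esr1 was 0.21 under normexp correction with loess, 0.22 with median centring and 0.87 when averaged with a further probe, a value with no measured base, as the control signal of that probe was at background on all 4 arrays.

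A further Esr1 probe was dim, with DEP signals from 22.1 to 41.1. Its DEP signal was above background on 4 arrays and its control signal on 0, so its ratios on single arrays were not measured and only a bound holds for the mean, which was at least 1.05-fold higher in the DEP channel (limma adjusted p = 0.112). The third Esr1 probe was not above background and had a ratio on 2 arrays, -0.13 and 0.02.

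Esr2, which encodes estrogen receptor beta, read -0.16, 0.18, -0.43 and -0.35, below 0 on 3 of 4 arrays, with a mean of -0.19 ± 0.27 (SD, n = 4), -0.32 without array 2 and -0.11 without array 3. Esrra encodes the ERR that drives mitochondrial genes, and its ratios of -0.39, -0.06, 0.01 and -0.19 were all small. Esrrb, known for its place in pluripotent cells and in the inner ear, read -0.73, 0.54, 0.10 and -0.46 and crossed 0 in both directions. Esrrg, an ERR of oxidative tissues such as muscle and brain, had the widest spread of all 31 receptors. Its ratios were -2.17, -0.94, 0.35 and 0.08, with a mean of -0.67 ± 1.14 (SD, n = 4) and a limma adjusted p of 0.460. Arrays 1 and 2 were low and arrays 3 and 4 lay just above 0, and the other Esrrg probe repeated this order with -2.002, -0.60, 0.47 and 0.29. The mean of Esrrg was -0.17 without array 1 and -1.01 without array 3.

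The receptors for corticoids did not depart from 0 together. Nr3c1 encodes the glucocorticoid receptor, through which steroids damp inflammation. Its brightest probe read -0.56, -0.02, 0.06 and 0.20, and its mean of -0.08 ± 0.33 (SD, n = 4) turned positive under normexp correction with loess or with median centring. The other Nr3c1 probe gave -0.05, -0.07, -1.08 and -0.65, so that the 2 probes were low on different arrays, array 1 for the brighter and arrays 3 and 4 for the dimmer. Nr3c2, the mineralocorticoid receptor of salt balance, read 0.11, -0.11, -0.39 and -0.72, with a mean of -0.28 ± 0.36 (SD, n = 4) and a limma adjusted p of 0.419, with -0.13 without array 4. Its lowest ratio was on array 4, as was that of Rarg, Rxra, Ppara and Pparg, among others.

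The retinoid receptors were all 6 fully measured, and their ratio SDs ran from 0.035 for Rxrg to 0.85 for Rarg. Rxra encodes RXR alpha, the common partner of the vitamin D, thyroid, PPAR and LXR receptors. Its ratios were 1.22, 0.54, 0.49 and 0.17, above 0 on all 4 arrays, from signals of 264, 111, 94.6 and 79.5 in the DEP channel against 114, 76.3, 67.6 and 70.6 in the control channel. The mean was 0.60 ± 0.44 (SD, n = 4), with an interval from 0.10 to 1.11 and a limma adjusted p of 0.227. Array 1 was the highest by a wide margin, and the mean was 0.40 without it. The other Rxra probe read 1.096, 0.22, 0.28 and -0.45, with a mean of 0.29, and it was below 0 on array 4. Averaging the 2 probes gave 0.44 for Rxra and ended its unadjusted call, as did leaving out array 2 or array 3. The mean of Rxra was 0.33 under normexp correction with loess and 0.32 with median centring, which also ended that call.

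Rxrb and Rxrg encode the other RXRs, and both were flat by the main ratios. Rxrb read -0.11, -0.05, -0.11 and 0.06. Rxrg read 0.05, 0.05, -0.02 and 0.01, the smallest spread of the 31 receptors. Both were called, at 0.42 and 0.43, under normexp correction with median centring, which replaced both the background correction and the dye normalization. The dimmer Rxrg probe read -0.78, -0.20, -0.11 and 0.33 and did not share the flat pattern.

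The retinoic acid receptors mediate the effects of vitamin A on epithelial differentiation. Rarg, the main such receptor of skin and other epithelia, read 1.68, 0.73, 0.31 and -0.36. Its signal was 16567 on array 1 against 7514, 5104 and 4028 on arrays 2 to 4 in the DEP channel, while the control channel stayed between 4121 and 5181. The mean was 0.59 ± 0.85 (SD, n = 4) with a limma adjusted p of 0.403, with 0.23 without array 1 and 0.91 without array 4. Arrays 1 to 3 were above 0 and array 4 was below. Rara, the widespread form, read -0.11, 0.23, 0.01 and 0.23, and its other probe was above 0 on all 4 arrays with a mean of 0.33 (limma adjusted p = 0.282). Rarb, itself a target of retinoic acid, read -0.67, 0.27, -0.25 and -0.03, with no common direction.

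The thyroid hormone receptors and the vitamin D receptor gave small ratios. Thra, the main thyroid receptor of heart, bone and brain, read -0.41, -0.06, -0.18 and -0.02, below 0 on all 4 arrays, with a mean of -0.17 ± 0.18 (SD, n = 4) and a limma adjusted p of 0.478, and of -0.09 without array 1. Under normexp correction with median centring its mean was 0.36, so its direction depended on the processing. Its other probe had a mean of -0.41 (limma adjusted p = 0.286) and was above 0 on array 4. Thrb, the thyroid receptor needed for hearing and for pituitary feedback, read -0.12, 0.24, 0.07 and 0.30. Vdr, the vitamin D receptor of bone, gut and epithelia, read 0.65, 0.22, 0.32 and -0.08, with a mean of 0.28 ± 0.30 (SD, n = 4) and a limma adjusted p of 0.377, with 0.15 without array 1. Vdr was above 0 on 3 of 4 arrays.

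The 3 PPARs, fatty acid sensors of liver, muscle and fat, had means above 0, although the mean of Ppard was only 0.05 and turned to -0.02 under normexp correction with loess. All 3 were below 0 on array 4. Pparg, the master regulator of fat cell differentiation, read 1.99, 0.79, 0.33 and -0.64. Its DEP signal was 9446, 3721, 3156 and 1674 on arrays 1 to 4, and its control signal lay between 2147 and 2616. The mean of 0.62 ± 1.09 (SD, n = 4) was the highest of the 31 receptors and had a limma adjusted p of 0.477, with 0.16 when array 1 was left out and 1.04 when array 4 was left out. Ppara, which drives fatty acid oxidation, read 0.96, 1.00, 0.63 and -0.44, with a mean of 0.54 ± 0.67 (SD, n = 4) and a limma adjusted p of 0.358, with 0.86 without array 4. Its other 2 probes had means of 0.33 and 0.60. Ppard, the widespread form, read 0.84, 0.07, 0.01 and -0.72, with a mean of -0.21 without array 1 and 0.31 without array 4.

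The 2 ROR receptors, constitutive activators that feed the circadian clock, had different patterns. Rorb, known from retina, brain and inner ear, read -1.36, -0.38, -0.99 and -0.19, below 0 on all 4 arrays. Its signals were 60.2, 106, 38.2 and 36.3 in the DEP channel and 155, 139, 76.0 and 41.4 in the control channel. The mean was -0.73 ± 0.54 (SD, n = 4), with an interval from -1.33 to -0.14 and a limma adjusted p of 0.220, and its unadjusted call was lost without array 1 or array 3. The other Rorb probe had its control signal above background on 2 of 4 arrays, so its ratios were only in part measured. Averaged with it, Rorb stood at -0.12 and lost its unadjusted call. With the brightest probe alone, the mean of Rorb was -0.42 under normexp correction with loess and -0.46 with median centring. Rora, a regulator of cerebellar neurons, lipid genes and immune cells, read 1.17, -0.46, 0.49 and -1.04. It was above 0 on arrays 1 and 3 and below 0 on arrays 2 and 4. The mean was 0.04 ± 0.98 (SD, n = 4), with -0.34 without array 1 and 0.40 without array 4.

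The liver X receptors (LXRs), sensors of oxidized cholesterol, were flat. Nr1h2, the widespread LXR beta, read -0.01, 0.12, -0.02 and -0.01. Nr1h3, the LXR alpha of liver, fat and macrophages, read -0.05, 0.14, -0.20 and 0.16, and its other probe had a mean of -0.02. The interval of the mean ran from -0.24 to 0.28 for Nr1h2 and from -0.29 to 0.31 for Nr1h3, so a difference of 1.5-fold lay outside both. Normexp correction with median centring gave 0.48 for Nr1h2, which was then called.

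Among the 3 fully measured COUP-TF receptors, Nr2f1 had the mean farthest from 0. It encodes COUP-TF1, a regulator of brain patterning and of inner ear development, and read -1.37, -0.56, -0.46 and 0.23. The DEP signal, not centred between arrays, lay between 2464 and 2890, while the control signal was 6631, 4269, 3393 and 2252 on arrays 1 to 4. With each channel centred on its median over all fully measured genes, the SD of the log2 signal was 0.31 for DEP and 0.38 for control. The mean ratio was -0.54 ± 0.65 (SD, n = 4) with a limma adjusted p of 0.348, with -0.26 without array 1. The other Nr2f1 probe kept the order of the arrays with -1.13, -0.40, -0.31 and 0.52. Nr2f2, the COUP-TF2 of veins and mesenchyme, read 0.09, 0.35, -0.18 and 0.19. Nr2f6, a repressor in lymphocytes, read 0.55, -0.18, -0.23 and -0.67 and was above 0 only on array 1.

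Nr2c1 and Nr2c2 encode the testicular orphan receptors, repressors that compete for the motifs of other receptors. Nr2c1 read 0.05, 0.03, -0.07 and -0.10 on its brightest probe and 0.32, 0.19, 0.26 and 0.22 on the other. The second set was higher on 4 of 4 arrays and had a mean of 0.25 (limma adjusted p = 0.283). Nr2c2 read -0.30, -0.09, -0.09 and -0.19, below 0 on all 4 arrays, with a mean of -0.16 that was 0.06 under normexp correction with median centring.

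Nr4a2 encodes an immediate early receptor, induced quickly by stress and needed by dopamine neurons. It read -1.11, -0.43, -0.40 and 0.23, with a mean of -0.43 ± 0.55 (SD, n = 4) and a limma adjusted p of 0.376, with -0.20 without array 1 and -0.65 without array 4. The other Nr4a2 probe read -0.99, -0.23, 0.02 and 1.02, with a mean of -0.04, the widest gap between the means of 2 fully measured probes of a receptor. Nr5a2, a regulator of bile acid and steroid synthesis, read -0.23, -0.31, -0.84 and -0.05, below 0 on all 4 arrays, with a mean of -0.36 ± 0.34 (SD, n = 4) and a limma adjusted p of 0.317, with -0.20 without array 3. Nr5a1, the steroidogenic factor of adrenal gland and gonad, read 0.67, 0.17, -0.18 and -0.13. It was above 0 on the first 2 arrays and below 0 on the last 2.

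Counted over the 31 receptors, 2 were above 0 on all 4 arrays, Esr1 and Rxra, and 4 were below 0 on all 4, Thra, Rorb, Nr2c2 and Nr5a2. Those counts are 6.45% and 12.9% of the receptors, against backgrounds of 15.4% and 10.7% of all fully measured genes.

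The 8 receptors tested on dim probes support no fold. Pgr, the progesterone receptor, read -1.88, -1.56, -0.74 and 1.60, but its DEP signal was above background on 0 arrays and its control signal on 2. Nr1h4, the bile acid receptor, was above background on 3 arrays in each channel and read 0.13, 0.22, -0.75 and 0.29. Nr1i3, a xenobiotic receptor of liver, read -0.24, -1.42, -1.13 and -2.31 with its control signal above background on 1 array and its DEP signal on 0. The mean ratio of Nr1i3 was -1.27 and that of Nr0b1, a repressor of steroid synthesis, was -1.04. These 2 were the receptors past 2-fold among the 39 tested, or 5.13% against a background of 4.37%, with 0 past it on the higher side against 2.37%, and both lost that place where only measured probes were kept. Nr0b2, a corepressor of bile acid synthesis, had a mean of 0.49 with 0 arrays above background in either channel, as had Nr0b1 and Nr1i2. Hnf4a, a liver and gut regulator, was above background on 1 array in the control channel, and Nr6a1, a germ cell receptor, on 2 arrays in the DEP channel.

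The spread of the ratios came from different channels in different receptors. To see this, the log2 signals of each channel were centred on that channel's median over the 18349 fully measured genes of the array, and their SD over the 4 arrays was taken. The signals of the 2 channels are not replicates of each other, and the SDs are a description. For Pparg the SD was 0.75 in the DEP channel and 0.39 in the control channel, for Rarg 0.59 and 0.28, for Rora 0.99 and 0.39 and for Rxra 0.47 and 0.07. The extracts labelled DEP therefore differed more among themselves than the control extracts for these 4 genes. For Nr4a2 the order was turned, with 0.15 in the DEP channel and 0.45 in the control channel, and for Esr1 it was 0.08 and 0.26. Esrrg varied in both, with 0.55 and 0.63, as did Nr2f1, with 0.31 and 0.38. Of the 11 receptors with a ratio SD above 0.5, the DEP channel was the more variable in 7 and the control channel in 4, where the control channel was so in 58.4% of all 4219 fully measured genes with such an SD. Over all 31 the control channel was the more variable in 16, or 51.6%, against 60.5% of all fully measured genes.

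**Figure D2:**
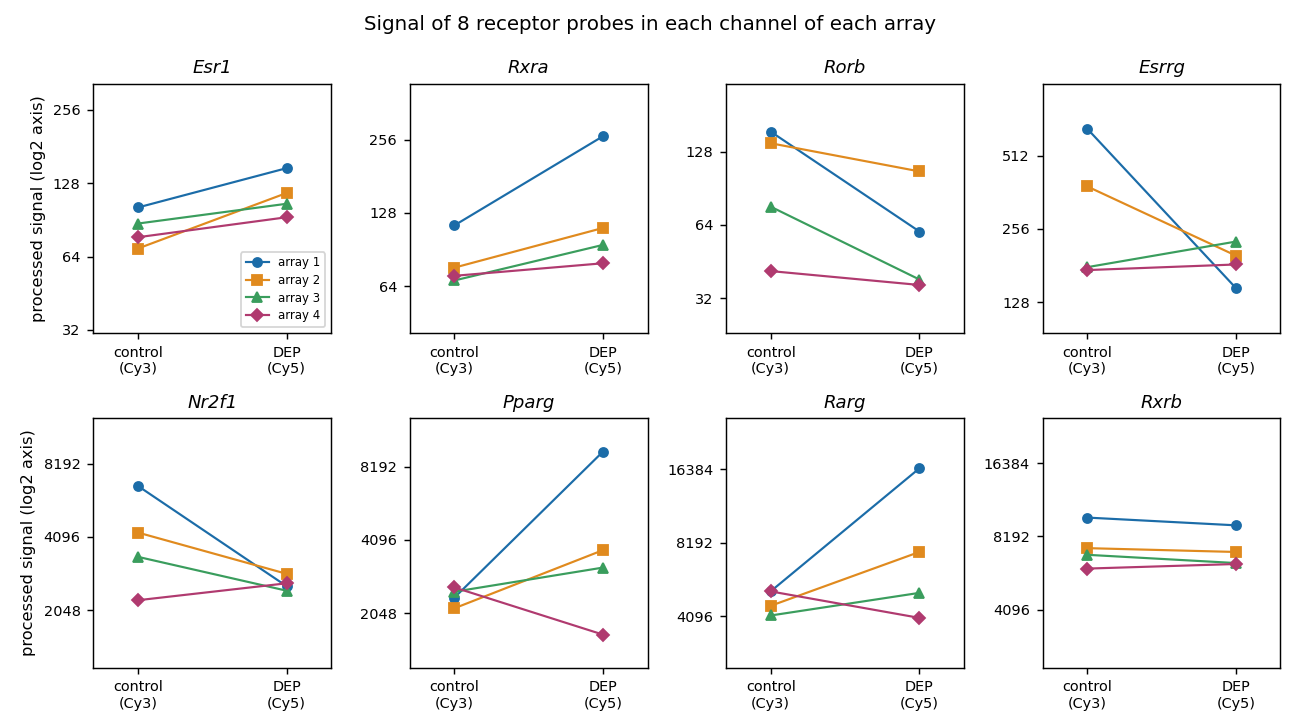
Processed signal of the brightest probe of 8 receptors in the control (Cy3) and DEP (Cy5) channels, with 1 line per array on a log2 axis that spans the same number of doublings in each panel. The signals are not centred between arrays. As plotted, Pparg and Rarg have similar control signals on all arrays and DEP signals that fan out. Nr2f1 has similar DEP signals and control signals from 2252 to 6631, and Rxrb runs nearly level on each array. Centred on channel medians, log2 signals of Nr2f1 have an SD of 0.31 in the DEP channel and 0.38 in the control channel.

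The same arrays stood apart from receptor to receptor. For 22 of the 31 receptors, or 71.0%, array 1 was the highest or the lowest of the 4, against 71.9% of all fully measured genes, and 18 receptors, or 58.1%, had opposite signs on arrays 1 and 4, against 59.5%. Past 2-fold on a single array were 8 receptors on array 1, 0 on arrays 2 and 3, and Rora on array 4. These are 25.8% of the receptors on array 1 and 3.23% on array 4, against 13.9% and 3.79% of all fully measured genes, with 4.82% and 5.17% of those genes on arrays 2 and 3. On array 1 the 8 were Esrrg, Rarg, Rxra, Pparg, Rora, Rorb, Nr2f1 and Nr4a2. Over the 31 receptors, ratios of arrays 1 and 2 correlated at r = 0.68 and arrays 1 and 3 at 0.52, and arrays 1 and 4 at -0.46. Over all fully measured genes the same values were 0.63, 0.42 and -0.47. Arrays 2 and 3 correlated at 0.48 over the receptors and 0.36 over all such genes, arrays 2 and 4 at -0.05 over both, and arrays 3 and 4 at -0.15 and 0.13, with opposite signs. These correlations run across genes of the same arrays, which are not independent.

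Of the 4 omissions of an array, that of array 4 gave the most unadjusted calls among the receptors. Without it Esr1, Rarg, Rxra, Ppara and Pparg were higher and Rorb, Nr2f1 and Nr4a2 lower among the 31 receptors at an unadjusted p under 0.05. Over the 39 tested, that made 5 higher and 6 lower, where 8.89% of all genes tested were higher and 9.81% lower. Among the 31, the only such receptor was Rxra without array 1, Rorb without array 2 and Esr1 without array 3. Over the 39 tested there were 2 higher and 2 lower without array 1, 1 and 2 without array 2, and 1 and 3 without array 3, where between 5.53% and 10.95% of all genes tested were higher and between 5.56% and 6.94% lower. No receptor was called after adjustment under any of the 4 omissions.

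Marker lists of other tissues differed between the same arrays. The 12 fully measured of 14 neuron markers had median ratios of -2.11, -1.43, -0.57 and 0.25 on arrays 1 to 4, in the same order as Nr2f1, Nr4a2 and, but for arrays 3 and 4, Esrrg, whose order the muscle markers below share in full. Their summed signal lay between 25504 and 36259 in the DEP channel and between 27652 and 101460 in the control channel. The 9 of 9 astrocyte markers had medians of -2.38, -1.04, -0.10 and 0.13, with summed signals from 45716 to 55083 and from 39281 to 234035. The 6 of 13 cerebellum markers had medians of -3.60, -3.94, -0.33 and 0.23, with sums from 4961 to 14973 and from 4457 to 117580. Of these 3 lists, 0 markers were at background in both channels on every array. The part of nervous tissue in the receptor ratios was not tested.

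Skeletal muscle markers, 13 of 13 fully measured, had medians of -0.84, -0.54, 0.74 and 0.72, lowest on array 1 and highest on array 3 as Esrrg was, and their summed signal ran from 386678 to 729248 in the DEP channel and from 330851 to 1203360 in the control channel. Adipocyte markers, 10 of 10, had medians of -0.33, 0.38, -0.20 and 0.44, in another order than Pparg, and bone and cartilage markers, 11 of 13, had -0.23, 0.21, -0.12 and 0.45. Markers of airway-type epithelium, the lining that the middle ear shares with the nose and throat, were fully measured in 12 of 12 genes, with medians of -0.15, 0.31, -0.17 and -0.54. These medians joined genes of unlike pattern, with 5 above 0 on array 1 and below 0 on array 4, as Rarg and Pparg were, and 7 below 0 on array 1. The 5 were Krt5 and Krt14, keratins of basal cells, Cdh1 and Epcam, adhesion genes of epithelia in general, and Scgb1a1, a secretory product, and they read between 1.62 and 2.95 on array 1 and between -2.53 and -0.33 on array 4. The 7, Krt8, Krt18, Foxj1, Muc5b, Bpifa1, Ltf and Sec14l3, also with secretory genes among them, read between -1.32 and -0.06 on array 1. The summed signal of the 12 ran from 190762 to 284770 in the DEP channel and from 205696 to 356146 in the control channel. Their part in the receptor ratios was not tested either.

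**Figure D3:**
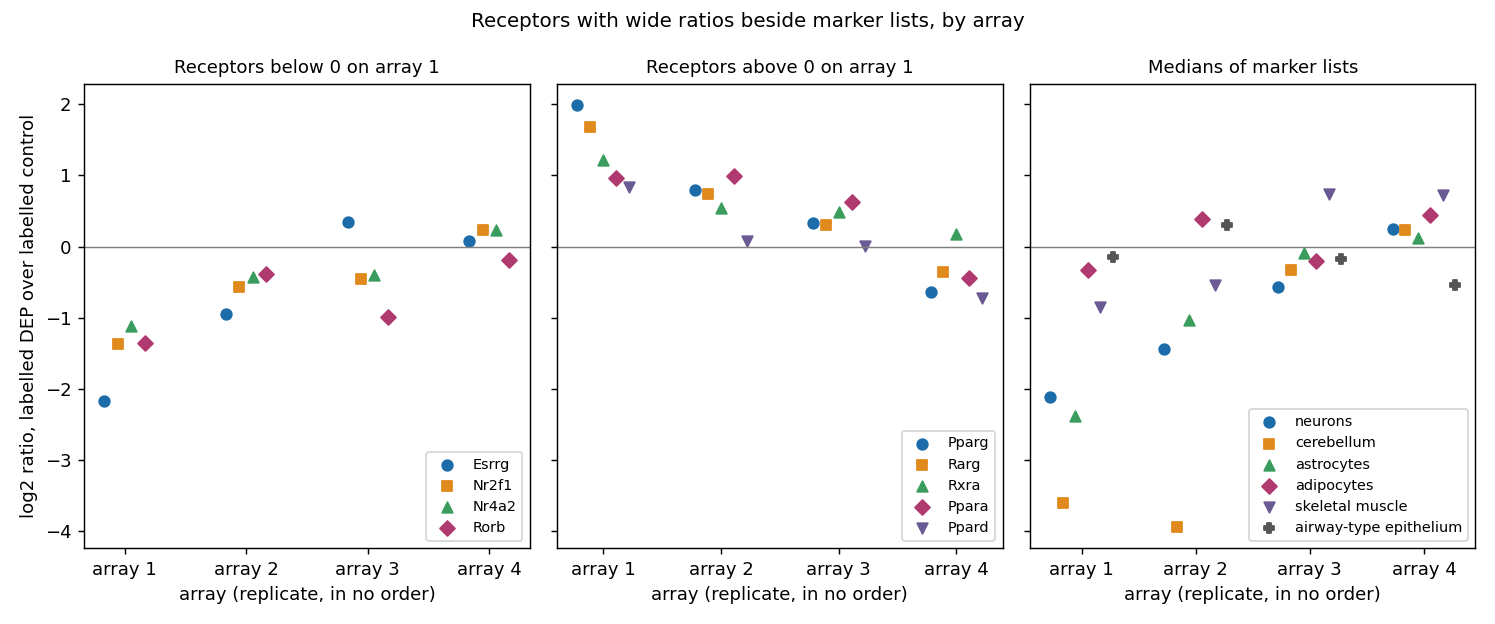
Log2 ratios on arrays 1 to 4 for receptors with widely spread ratios, those below 0 on array 1 on the left and those above 0 on array 1 in the middle, with the medians of 6 lists of tissue markers on the right. Esrrg, Nr2f1 and Nr4a2 lie below -1 on array 1 and above 0 on array 4, as do the neuron and astrocyte markers, and Pparg and Rarg lie at 1.99 and 1.68 on array 1 and at -0.64 and -0.36 on array 4.

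Fully measured probes of the same receptor could be compared in 14 genes. They gave 15 pairs of the brightest and another probe, each pair aimed at the same accession. The mean ratios had the same sign in 12 pairs and opposite signs in 3, those of Rxrg, Nr1h3 and Nr2c1. By mean ratio 0 pairs differed by more than 0.5, the widest gap was 0.38 for Nr4a2, and the median gap was 0.21. On single arrays the agreement was lower, and 4 pairs had the same sign on all 4 arrays. The probes of Esrrg, Nr2f1 and Ppara shared the order of their arrays, whereas those of Nr3c1 and Rxrg did not.

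**Figure D4:**
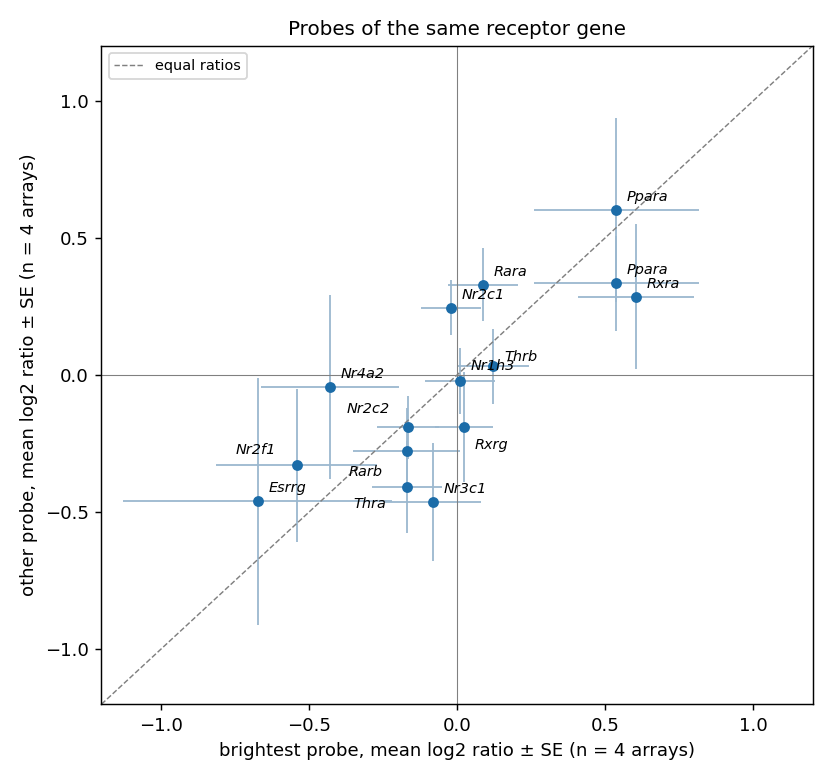
Mean log2 ratio of the brightest probe of a receptor on the horizontal axis and of each other probe on the vertical axis, where both were fully measured, with bars of 1 standard error from limma (n = 4 arrays) and a dashed line of equality. Most pairs lie in the same quadrant, and Nr2c1, Nr1h3 and Rxrg lie across 0.

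The genes that work with the receptors were followed through 12 lists of coregulators, chaperones, ligand handling genes and genes listed here as targets. Of 129 genes, 121 were tested and 104 were fully measured. At an adjusted p under 0.05, 0 were called. At an unadjusted p under 0.05, 8 of the 104 were higher, or 7.69% against a background of 6.55%, and 2 were lower, or 1.92% against 6.07%. Their median ratio was 0.03, as for all fully measured genes.

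Coactivators and corepressors, which receptors recruit to open or close chromatin, were all 22 fully measured, with 6 means above 0 and 16 below and a median of -0.03. Pnrc1, a receptor coactivator, was the only one of the 22 past the unadjusted threshold, with 0.39, 0.23, 0.23 and 0.27 on the 4 arrays and a limma adjusted p of 0.252. Of the 9 chaperones that hold steroid receptors ready, 3 passed it, 2 higher and 1 lower. Over all fully measured genes 6.55% were higher and 6.07% lower by that rule. Dnajb1, a heat shock cochaperone, read 0.59, 1.05, 0.80 and 0.49, above 0 on every array, with a limma adjusted p of 0.128. Fkbp5, an immunophilin and a known target of the glucocorticoid receptor, read 0.89, 0.36, 0.41 and 0.39, with a limma adjusted p of 0.185. Ptges3, the p23 cochaperone, read -0.27, -0.23, -0.33 and -0.47, below 0 on every array, with a limma adjusted p of 0.227. The chaperones thus lay on both sides of 0, with a median of -0.10 over 4 means above 0 and 5 below.

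Target genes of PPARs had 10 of 14 means above 0 and a median of 0.27, with 0.07, 0.49, 0.13 and 0.39 on arrays 1 to 4. The adipocyte markers, which share Cidec, Plin1 and Adipoq with this list, were likewise higher on arrays 2 and 4 than on arrays 1 and 3, and their part in it was not tested. Of the 14 genes, 3 passed the unadjusted threshold, all higher, against a background of 6.55% of all fully measured genes. Cidec, a lipid droplet protein, read 0.23, 0.80, 0.25 and 1.08. Cd36, a fatty acid transporter, read 0.68, 0.70, 0.29 and 0.09. Cpt1a, the gate of fatty acid entry into mitochondria, read 0.38, 0.30, 0.12 and 0.33. All 3 were above 0 on each array, including array 4, where the PPARs themselves were below 0, and limma's adjusted p was 0.224, 0.242 and 0.262.

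Target genes of LXRs had 7 of 8 means above 0 and a median of 0.32, with 1.25, 0.31, 0.34 and -0.35 on the arrays, while the LXRs were flat. Over all fully measured genes 54.4% had means above 0. Of the 8, 5 were above 0 on array 1 and below 0 on array 4, as were 5 of the 12 epithelial markers and 27.4% of all fully measured genes, and the part of epithelium in this list was not tested. Mylip, which degrades the LDL receptor, read 0.25, 0.34, 0.30 and 0.30, a SD of 0.038 with a limma adjusted p of 0.232. Retinoid handling genes had 10 of 12 means above 0 with medians of 0.74, 0.29, -0.00 and -0.14, and target genes of retinoid receptors had 6 of 7 above 0 with a median of 0.26. Of those lists, 6 of 12 and 4 of 7 genes were above 0 on array 1 and below 0 on array 4, and the part of epithelium was not tested here either. None of the genes in those 2 lists passed the unadjusted threshold.

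Thyroid hormone handling had 6 of 8 genes fully measured, with 3 means above 0, 3 below and a median of 0.03. Calb2, which the list used here places among targets of the vitamin D receptor, is an abundant calcium buffer of neurons. It read -1.81, -1.43, -0.10 and -0.61, below 0 on each array, with a mean of -0.99 and a limma adjusted p of 0.223. Its 2 lowest arrays were the 2 on which neuron markers were lowest, but on array 4 it read -0.61 where their median was 0.25. The part of nervous tissue in the Calb2 ratio was not tested. The 4 fully measured genes listed as targets of the vitamin D receptor had a median of -0.08. Steroid and vitamin D handling had 6 of 17 genes fully measured and a median of 0.27. Targets of the ERRs had -0.06, those of the thyroid receptors -0.26 and those of the estrogen and progesterone receptors -0.05.

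**Figure D5:**
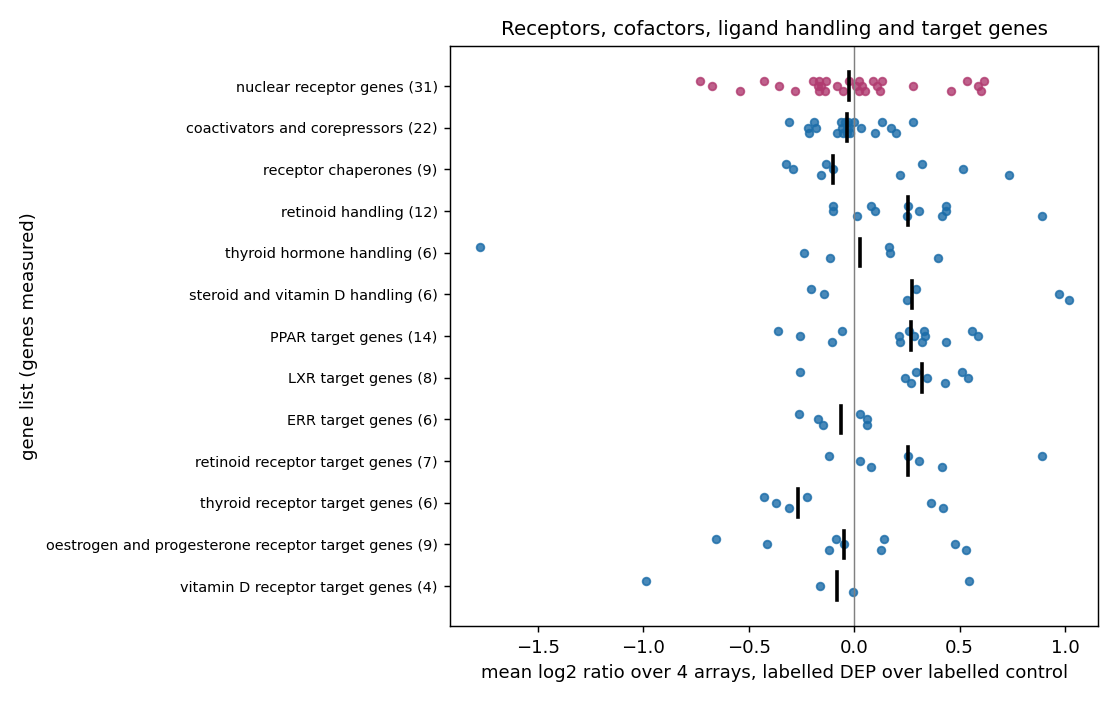
Mean log2 ratio of each fully measured gene for the 31 receptors in the top row and for 12 lists of cofactors, ligand handling genes and target genes, with 1 point per gene and a black bar at the median of each row. The medians of the lists run from -0.26 for targets of thyroid receptors to 0.32 for targets of LXRs, and the points of most lists lie on both sides of 0.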

How the data were processed

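Middle ear RNA was hybridized to 4 two-colour arrays, all from 1 slide read in 1 scan. The authors quantified the spots with Agilent Feature Extraction 10.10.1.1 (per the submitters' processing notes), whose deposited processed intensity is background-subtracted, detrended and normalized for the dyes within an array. A deposited log10 ratio sets Cy5 over Cy3, and 0 stands for no ratio. The deposited table of the authors' log10 values holds the same ratios rounded and was used as an alternative.

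Ratios were converted to log2. Control spots, flagged spots (164 to 274 per array) and spots without a ratio (6179 to 8558 of 43020) were left out, and spots of a probe were averaged. Probes with ratios on 3 or 4 arrays were tested (31577). Gene names are lacking in the files, so RefSeq names (GRCm38.p6) were matched by accession for 27655 of 39429 probes, and no coordinates of probes were used. In limma 3.58.1 (R 4.3.3), lmFit and eBayes fitted an intercept to each probe's ratios (1.98 prior degrees of freedom), tested on both sides and adjusted by Benjamini-Hochberg over all probes tested. On simulated ratios for this comparison with 200 of 31577 probes changed, 85 were called, 3 of them false, with 60 of 100 recovered at a log2 change of 2 and 22 of 100 at 1. Values on each array were planned for fully measured receptors that had an unadjusted p under 0.05, lay past 2-fold, led their family by mean ratio or had disagreeing probes, and for Esr1, and those of the other receptors were added after the values were seen. Named pathway genes are those with a fully measured probe, an unadjusted p under 0.05 and the same sign on all arrays, and 1 such gene is not reported here. Receptors, gene lists and tests were chosen with earlier results of these data known. The number of arrays limits the precision. Alternatives were normexp (offset 50, on median signals, since no mean signals are given) with loess or median centring, the deposited table, filters on background, flagged spots kept, an intensity trend, the mean of probes, and each array left out.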

Additional observations from a re-analysis of the deposited data

Results flagged for a closer look

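An outlying array was looked for in the 38 receptors with 4 ratios, by the gap between the highest or lowest array and its neighbour as a share of the whole range (Dixon's 95% limit), and 2 were found where chance gives about 1 in 20. Nr1h2 read 0.12 on array 2, with the other arrays between -0.02 and -0.01. Nr1h4, which was above background on 3 arrays in each channel, read -0.75 on array 3, with the other arrays between 0.13 and 0.29.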

How the results depend on the processing

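The dye correction had the largest effect. Under normexp with median centring, which raised the median of all genes tested from 0.03 to 0.11 and called 2988 of them, 2784 higher, the receptors called after adjustment went from 0 to 4 of 39 (Rxrb, Rxrg, Nr1h2 and Nr2f2, all higher), those with an unadjusted p under 0.05 from 3 to 14 higher and from 3 to 5 lower (28.2% and 8.87% of all genes tested), and the median of the 39 from -0.05 to 0.15. The pathway genes called went from 0 to 25 of 121, and those higher at an unadjusted p from 11 to 51. Under this setting means of opposite sign were 0.064 for Esr2, 0.28 for Esrra, 0.071 for Esrrb, 0.48 for Nr3c1, 0.00079 for Rarb, 0.42 for Rxrb, 0.36 for Thra, 0.15 for Nr2c1, 0.060 for Nr2c2, 0.26 for Nr2f6, -0.036 for Nr6a1 and -0.19 for Nr0b2. The cause was not tested. Normexp with loess gave opposite signs of 0.035 for Nr3c1, -0.00072 for Rara, -0.020 for Ppard, -0.090 for Nr1h3 and 0.10 for Nr1i2, and the mean of probes gave -0.083 for Rxrg, -0.0057 for Nr1h3 and 0.11 for Nr2c1. Receptors past 2-fold went from 2 to 0 under both normexp settings, under filters for 1 channel or both channels above background and over the fully measured receptors alone (a count added after seeing the data), and to 1 with flagged spots kept. Those lower at an unadjusted p went from 3 to 1 under the same filters, which drop dim probes. Pathway genes lower at an unadjusted p, 2 by the main ratios, were 7 under normexp with loess, 4 with an intensity trend and 1 with the mean of probes.

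With each array left out in turn, receptors called after adjustment stayed at 0, those higher at an unadjusted p ranged from 1 to 5, those lower from 2 to 6 and those past 2-fold from 2 to 3. Pathway genes ranged from 5 to 15 higher and from 1 to 4 lower. Means that changed sign ranged from -0.36 to 0.061 for Esrrb, -0.17 to 0.080 for Nr3c1, -0.21 to 0.31 for Ppard, -0.34 to 0.40 for Rora, -0.010 to 0.036 for Nr1h2, -0.038 to 0.080 for Nr1h3, -0.13 to 0.22 for Nr1h4, -0.79 to 0.12 for Nr1i2, -0.046 to 0.0043 for Nr2c1, -0.36 to 0.046 for Nr2f6 and -0.048 to 0.24 for Nr5a1. Of the 39 receptors, 18 kept their sign under each alternative that gave them a value, 14 of them fully measured, Esr1, Rxra and Rorb included. The other 4 were dim and had no value under the filters on background. The deposited table of ratios moved none of these counts. Each ratio sets both extracts of an array against each other, so the test is paired by array, and the labels give no further pairing. Signal over background limits the 8 receptors on dim probes.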
